A study of Mus musculus with 6 samples.

Results

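The genes described here are 10 genes of prostaglandin and leukotriene synthesis and signalling: Ptgs1, Ptgs2, Ptges, Ptgis, Ptgds, Alox5, Alox5ap, Alox15, Ptger4 and Ltb4r1. They were taken by name from the 18749 gene rows of 6 RNA sequencing libraries, each made from whole mouse aorta, and all 10 had a row. Of these, 9 had enough reads to be tested among 14466 genes, and Ptgds did not. The tested animals were Apoe-/- mice that had received Apoe-/-Sept2C111A bone marrow (3 libraries), and the comparison animals were Apoe-/- mice that had received Apoe-/- bone marrow (3 libraries). Both groups, recipients and donors alike, lack apolipoprotein E, and all mice were infused with angiotensin II (Ang II) for 28 days, a regimen that gives aneurysms in Apoe-/- mice. Only cells that descend from the donor marrow can carry the altered septin-2, and the labels give neither the share of donor cells in the aortas nor the sex or age of the mice. The comparison asks how transcript levels in the aorta differ with the marrow donor.

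Prostaglandins and leukotrienes are lipid signals made from arachidonic acid that phospholipases release from membranes. The cyclooxygenases (encoded by Ptgs1 and Ptgs2) make prostaglandin H2, which terminal synthases turn into prostaglandin E2, prostacyclin, prostaglandin D2 or thromboxane. In a separate branch, 5-lipoxygenase (Alox5), helped by its membrane partner FLAP (Alox5ap), makes leukotriene A4, the precursor of leukotriene B4, which draws neutrophils and other leukocytes through its receptor BLT1 (Ltb4r1). In arteries, smooth muscle and endothelium are known for prostacyclin, and leukocytes for leukotrienes.

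Aortas of Sept2C111A marrow recipients held less Alox5ap RNA than those of Apoe-/- marrow recipients, at 30.0 ± 5.45 against 89.4 ± 38.5 CPM (read counts scaled to the size of the library, mean ± SD, n = 3 each), and this was the 1 member whose groups did not overlap. The receptor gene Ltb4r1 was lower too, at 1.51 ± 0.612 against 24.4 ± 36.5 CPM, but most of that difference came from 1 Apoe-/- library. The cyclooxygenase, prostaglandin E, prostacyclin and lipoxygenase enzymes and the receptor gene Ptger4 had overlapping levels. No member passed edgeR's quasi-likelihood test after Benjamini-Hochberg adjustment over 14466 genes (0 of 9, where 0% of all tested genes were called higher and 0% lower). At an unadjusted edgeR p under 0.05, Alox5ap and Ltb4r1 were lower (2 of 9, against 8.83% of all tested genes) and no member was higher (0 of 9, against 6.17%). DESeq2, run as an alternative, called the same 2 genes lower at adjusted p under 0.05, where it called 2.89% of all genes lower, and called no member higher, against 0.985% of all genes. Of the 9 tested members 7 had a negative log2 fold change, as did 49.9% of all genes. The members' median was -0.23, beside 0.001 for all tested genes.

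Each library held between 17082719 and 20494928 expected counts, and reads were found for 16747 to 17074 genes. Apoe-/- libraries 1 and 3 stood apart from the other 4 libraries on the first principal components, which held 46.6% and 28.1% of the variance. Smooth muscle markers were abundant in all libraries, as the tissue label calls for. Summed over 6 genes (Myh11, Acta2, Tagln, Cnn1, Myocd and Lmod1) they held 14590 to 22190 CPM in the Sept2C111A group and 5439 to 17170 CPM in the Apoe-/- group. These are bulk samples, so fewer cells of a type and less RNA per cell cannot be told apart in any of the values below.

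**Figure D1:**
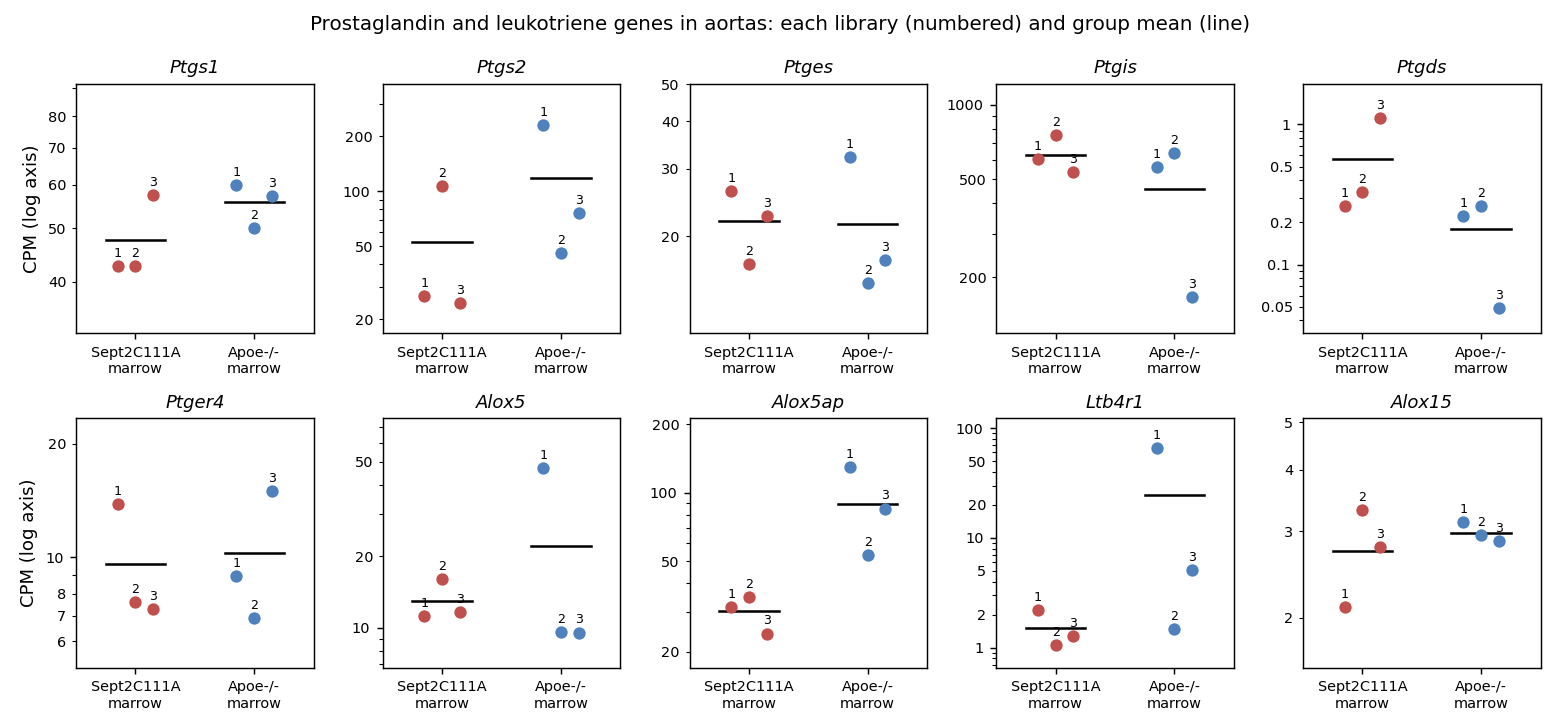
CPM of each of the 10 genes (log axis) in every library, with Sept2C111A marrow recipients in red on the left and Apoe-/- marrow recipients in blue on the right; numbers are the sample numbers and lines the group means (n = 3 each). The groups are separate for Alox5ap, from 24.0 to 34.6 CPM against 53.2 to 130 CPM, while Apoe-/- library 1 alone carries the high values of Alox5 and Ltb4r1.

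The cyclooxygenases differed from each other in how much they varied between animals. Ptgs1, the constitutive enzyme COX-1 (ENSMUSG00000047250.13, mm10 chromosome 2, 36230426 to 36252272), had 42.7, 42.7 and 57.5 CPM in Sept2C111A recipients, against 60.1, 50.1 and 57.2 CPM in Apoe-/- recipients. The groups overlapped, and the whole range over 6 aortas was narrow. The difference on the log2 scale was -0.23 (SE 0.16), with an adjusted p of 0.493 by edgeR.

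Ptgs2, the inducible enzyme COX-2 (ENSMUSG00000032487.8, chromosome 1, 150100031 to 150108227), had 26.7, 107 and 24.5 CPM in Sept2C111A recipients, against 231, 46.1 and 75.7 CPM in Apoe-/- recipients. Sept2C111A library 2 thus lay above 2 of the 3 Apoe-/- libraries, and Apoe-/- library 1 held the most. The highest library exceeded the lowest 4.39-fold within the Sept2C111A group and 5.00-fold within the Apoe-/- group. The log2 fold change, -1.15 (adjusted p = 0.488 by edgeR, SE 0.81), rested on single animals. It was -0.19 without Apoe-/- library 1 and -2.19 without Sept2C111A library 2, and in that second case DESeq2 called it, at adjusted p = 0.0419. Per kb of exon, the ratio of Ptgs2 to Ptgs1 within a library was 0.532, 2.13 and 0.361 in Sept2C111A recipients, against 3.26, 0.781 and 1.12 in Apoe-/- recipients. The ratios of the groups overlapped. An exact two-sided permutation test of 3 against 3 libraries cannot go below p = 0.1, so its p of 0.4 does not tell whether the ratio differed.

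In the prostaglandin E branch, Ptges and Ptger4 had overlapping groups and means close to each other. Ptges, the inducible microsomal prostaglandin E synthase (ENSMUSG00000050737.13, chromosome 2, 30889471 to 30929863), had 26.3, 16.9 and 22.5 CPM in Sept2C111A recipients, against 32.2, 15.04 and 17.3 CPM in Apoe-/- recipients. Its group means were alike, with a log2 fold change of 0.03 (SE 0.33), but this depended on single libraries. The value was 0.45 without Apoe-/- library 1 (SE 0.22, edgeR adjusted p = 0.41) and -0.17 without Apoe-/- library 2. Ptgs2, which often feeds Ptges, varied far more in the same libraries. Ptger4, the prostaglandin E2 receptor EP4 (ENSMUSG00000039942.15, chromosome 15, 5206661 to 5244187), had 13.9, 7.63 and 7.29 CPM in Sept2C111A recipients, against 8.93, 6.89 and 14.98 CPM in Apoe-/- recipients. In each group 1 library stood near 14 or 15 CPM and the others lower, so the small difference of -0.10 on the log2 scale (SE 0.39) had no stable sign: it ran from -0.45 to 0.28 when libraries were left out in turn. Exons of Ptger4 overlap a pseudogene on the other strand over 1015 bases, 15.3% of their length, and such reads cannot be separated with no strand setting stated.

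Ptgis, which encodes prostacyclin synthase (ENSMUSG00000017969.13, chromosome 2, 167191805 to 167240604), was the most abundant member. It had 602, 754 and 533 CPM in Sept2C111A recipients, against 560, 638 and 167 CPM in Apoe-/- recipients. In 5 aortas the levels lay within a narrow band, and Apoe-/- library 3 stood far below them. The log2 fold change, 0.47 with an SE of 0.49 (edgeR adjusted p = 0.636), was 0.07 without that library. Apoe-/- library 3 also held the lowest sum of the 6 smooth muscle markers, 5439 CPM, where the other Apoe-/- libraries held 16210 and 17170 CPM, and all 6 markers were lower on average in the Apoe-/- group. That library was apart in other markers too, with the lowest adipocyte sum (99.5 CPM) and the highest adventitial fibroblast (24160 CPM) and macrophage (4080 CPM) sums. The part of smooth muscle or any other cell type in the Ptgis level was not tested. Ptgds, the lipocalin-type prostaglandin D synthase (ENSMUSG00000015090.13, chromosome 2, 25466709 to 25470046), was nearly silent. It had 5, 6 and 20 reads in Sept2C111A recipients, against 4, 5 and 1 reads in Apoe-/- recipients, which is at most 1.11 CPM, so no difference was detectable at this depth.

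The leukotriene branch held both members that DESeq2 called. Alox5ap, whose product FLAP hands arachidonic acid to 5-lipoxygenase (ENSMUSG00000060063.9, chromosome 5, 149264767 to 149288153), had 31.5, 34.6 and 24.0 CPM in Sept2C111A recipients, against 130, 53.2 and 85.1 CPM in Apoe-/- recipients. All 3 Sept2C111A libraries lay below the lowest Apoe-/- library. Groups were separate for 1 of 9 members, against 23.1% of all tested genes in either direction and 11.9% in this one, so the share of members is no higher than that background. The log2 fold change was -1.57 (SE 0.34), a 2.97-fold lower level, with an unadjusted p of 0.00306 and an adjusted p of 0.316 by edgeR. DESeq2 gave an adjusted p of 0.00322. It called the gene in 5 of 6 fits that left out 1 library, with log2 fold changes from -1.83 to -1.204, and lost the call without Sept2C111A library 3 (adjusted p = 0.0846). Without Apoe-/- library 1, which held the most Alox5ap, the log2 fold change was -1.204 and the DESeq2 adjusted p 0.0158. The gene overlaps an antisense gene on 189 bases, 13.3% of its exon length, where the same limit on strand holds. Shorter overlaps with genes on the other strand touch Ptgs1 (148 bases, 3.81%) and Ptgis (156 bases, 6.08%).

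Alox5, the 5-lipoxygenase gene itself (ENSMUSG00000025701.12, chromosome 6, 116410077 to 116461178), had 11.2, 16.02 and 11.6 CPM in Sept2C111A recipients, against 46.8, 9.62 and 9.54 CPM in Apoe-/- recipients. Apoe-/- library 1 stood far above all others, and the other 2 Apoe-/- libraries lay below every Sept2C111A library. On the log2 scale the difference was -0.76 (edgeR adjusted p = 0.57, SE 0.66), and it turned to 0.44 (edgeR adjusted p = 0.414) without Apoe-/- library 1. Both Alox5 and its partner Alox5ap were highest in that library. Per kb, the ratio of Alox5ap to Alox5 was 8.09, 6.25 and 5.98 in Sept2C111A recipients, against 8.02, 16 and 25.8 in Apoe-/- recipients, and the groups overlapped. The exact permutation test of this ratio (p = 0.2) has the same limit as that of the cyclooxygenases and decides nothing.

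Ltb4r1, the high-affinity leukotriene B4 receptor BLT1 (ENSMUSG00000046908.5, chromosome 14, 55765962 to 55768494), had 2.21, 1.05 and 1.28 CPM in Sept2C111A recipients, against 66.5, 1.47 and 5.14 CPM in Apoe-/- recipients. The groups overlapped, since Apoe-/- library 2 lay below Sept2C111A library 1. Within the Apoe-/- group the highest library exceeded the lowest 45.2-fold, the widest spread of the members in either group. The fitted log2 difference was -4.0 with an SE of 1.42 (edgeR adjusted p = 0.316), and DESeq2 gave an adjusted p of 0.0164. That call was made in 1 of the 6 DESeq2 fits with a library left out, the one without Apoe-/- library 2 (adjusted p = 0.000119). It was lost without Sept2C111A library 1 (adjusted p = 0.0612), 2 (0.077) or 3 (0.184) and without Apoe-/- library 3 (0.0877). Without Apoe-/- library 1 the log2 fold change was -1.11 by edgeR and the DESeq2 adjusted p 0.455. In 5 of the 6 libraries its count was fractional, which means that some of its reads also matched other transcripts.

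Alox15, the 12/15-lipoxygenase known from eosinophils and resident peritoneal macrophages (ENSMUSG00000018924.6, chromosome 11, 70344152 to 70352031), had 2.1, 3.32 and 2.78 CPM in Sept2C111A recipients, against 3.13, 2.94 and 2.87 CPM in Apoe-/- recipients. The levels were low and even, with a log2 difference of -0.12 between groups (SE 0.28, adjusted p = 0.838 by edgeR). All 6 counts were fractional, so part of its reads were shared with other transcripts.

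**Figure D2:**
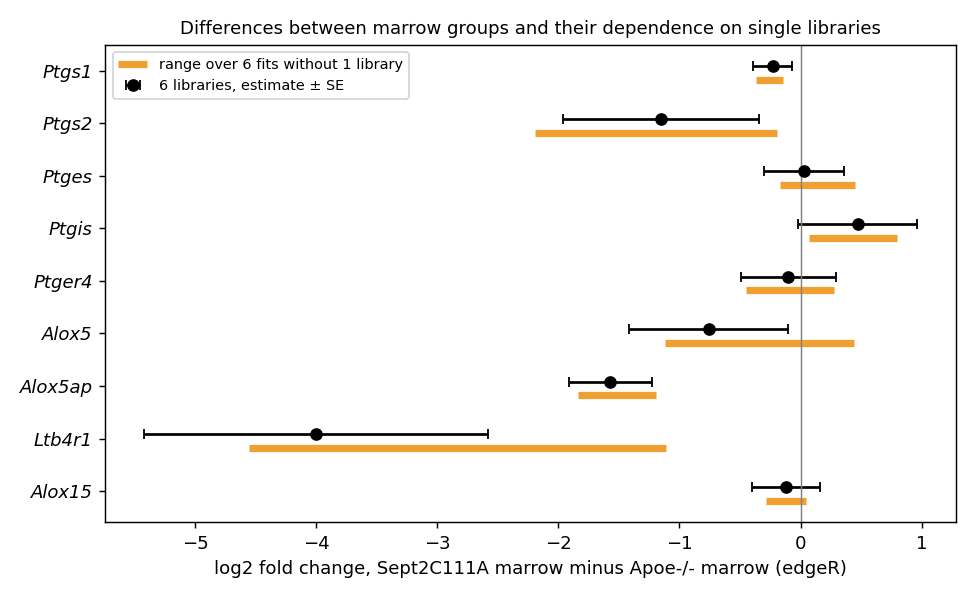
Log2 fold change (Sept2C111A marrow minus Apoe-/- marrow, edgeR) of the 9 tested genes, with the estimate from 6 libraries ± SE in black and the range over the 6 fits that leave out 1 library in orange. The Alox5ap range, -1.83 to -1.19, stays clear of 0, that of Ltb4r1 spans -4.55 to -1.11, and those of Ptges, Ptger4, Alox5 and Alox15 cross 0.

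Apoe-/- library 1 was the highest of the 6 for 6 of the 9 tested members (Ptgs1, Ptgs2, Ptges, Alox5, Alox5ap and Ltb4r1), where it was the highest for 25.0% of all tested genes. That library also held the most RNA of neutrophil, platelet, eosinophil, erythroid, B cell, mesothelial and Schwann cell markers. The sum of 10 neutrophil markers was 28.8, 16.7 and 20.0 CPM in Sept2C111A recipients, against 2918, 89.4 and 333 CPM in Apoe-/- recipients. The sums of the groups did not overlap. All 7 markers with enough reads to be tested were lower in the Sept2C111A group, against 49.9% of all tested genes. Of the untested markers, Ly6g was at 0 in all 3 Sept2C111A libraries and in Apoe-/- library 2. Camp and Ngp had at most 0.558 CPM in any library, and their groups overlapped. Platelet markers were lower for 6 of 6 genes, with summed levels of 41.0 to 48.6 CPM against 99.3 to 341 CPM. Of these, Gp1ba was nearly level, with a log2 fold change of -0.07 and overlapping groups. Erythroid markers (5 of 5 lower) summed to 202 to 708 CPM in the Sept2C111A group and to 1683, 70.6 and 1107 CPM in the Apoe-/- group, which overlapped. B cell markers (4 of 4 lower) summed to 1.78 to 7.04 CPM in Sept2C111A recipients and to 28.7, 8.31 and 10.5 CPM in Apoe-/- recipients.

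Macrophage markers did not separate the groups. Their 10 genes summed to 1951 to 2957 CPM in Sept2C111A recipients and 1801 to 4080 CPM in Apoe-/- recipients, with 8 of 10 lower. The sum was lowest in Apoe-/- library 1, but single markers differed in this. Fcgr1 was highest there, at 81.7 CPM, where the other 5 libraries had 15.1 to 35.3 CPM. Of 5 eosinophil markers only Siglecf could be tested, and the 5 summed to 0.334 to 0.553 CPM against 6.52 to 12.1 CPM. Siglecf (11.2, 6.05 and 3.31 CPM) and Ccr3 (0.893, 0.421 and 2.87 CPM) held nearly all of the Apoe-/- sums. The granule gene Prg2 did not follow the sum. It had 0.158, 0.0553 and 0.167 CPM in Sept2C111A recipients, against 0, 0 and 0.297 CPM in Apoe-/- recipients. Epx, the eosinophil peroxidase gene, and Ear6 were each at 0 in 5 libraries. Mast cell markers summed to 33.6 to 63.7 CPM against 33.5 to 41.0 CPM, which overlapped. Of 6 tested mast cell markers 5 were higher in the Sept2C111A group, against 50.1% of all tested genes. The exception was Kit, which had 23.4 CPM in Apoe-/- library 3. The part of neutrophils, platelets, other blood cells or any other cell type in the levels of Alox5ap, Alox5, Ltb4r1 and Ptgs2 was not tested. Without Apoe-/- library 1 the log2 fold change of Alox5ap was -1.19 by edgeR. In the other Apoe-/- libraries the neutrophil, eosinophil, macrophage, platelet, B cell, adventitial fibroblast and mesothelial sums each lay above all Sept2C111A sums. The fibroblast sum of the Apoe-/- group was mostly Col1a1, and 5 of 6 fibroblast markers were higher in the Sept2C111A group. Any link of these sums to Alox5ap was not tested.

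**Figure D3:**
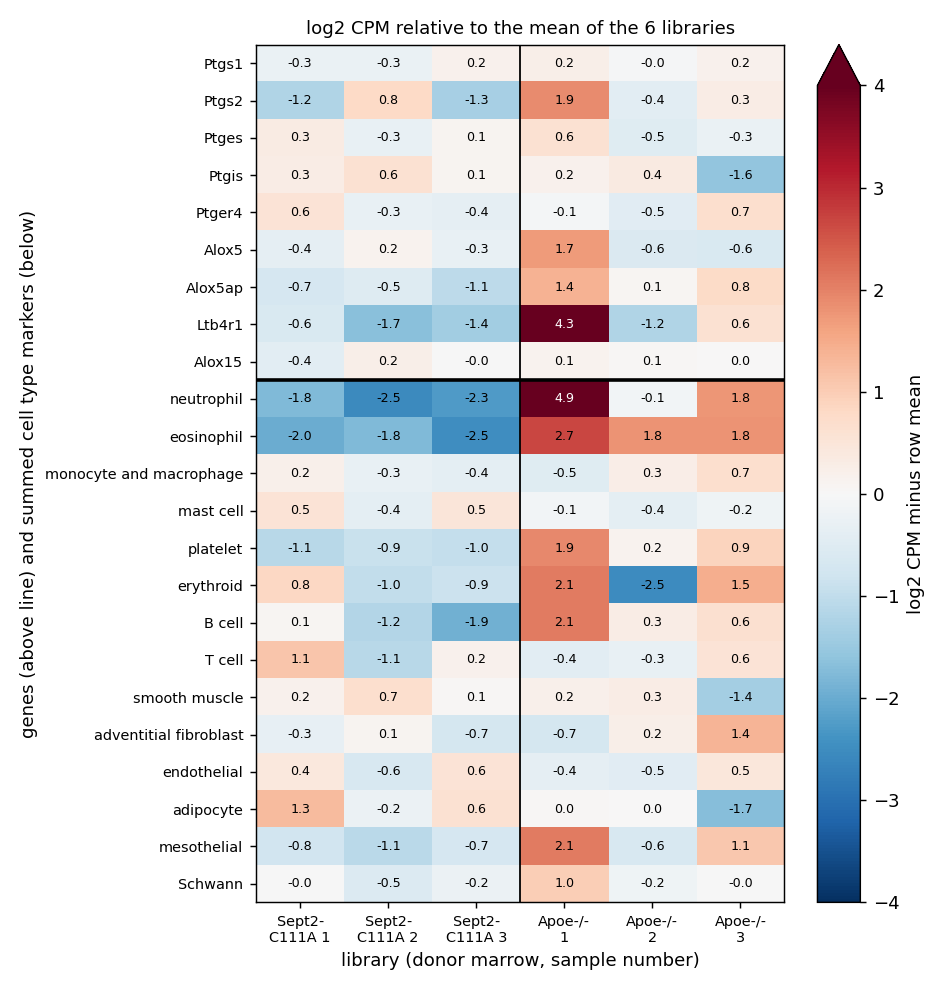
Log2 CPM relative to the mean of the 6 libraries for the 9 tested genes (above the line) and for summed cell type markers (below it), with Sept2C111A libraries in the 3 left columns and Apoe-/- libraries in the 3 right columns; red is above and blue below the mean. Apoe-/- library 1 is at 4.3 for Ltb4r1, 1.7 for Alox5 and 4.9 for the neutrophil sum. Apoe-/- library 3 is at -1.6 for Ptgis, -1.4 for the smooth muscle sum, -1.7 for the adipocyte sum and 1.4 for the adventitial fibroblast sum.

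The start sites of Ptgs2, Alox5 and Ltb4r1 are shown because these are the members with a RefSeq promoter entry whose level was highest, by a wide margin, in Apoe-/- library 1. Alox5ap had no entry. The sequences are from RefSeq (GRCm38.p6, the same assembly as mm10) and run 5′ to 3′ on the gene's strand, from 250 bases before to 30 bases after the annotated start. Capitals mark matches to any of 7 motifs on either strand: the E-box CACGTG, a CRE-type ACGTCA, a C/EBP-type TTGCGCAA, an AP-1-type TGANTCA, a PU.1-type GAGGAAG, the GC box GGGCGG and a kappa B-type motif.
Ptgs2, chr1:150099781-150100060, plus strand: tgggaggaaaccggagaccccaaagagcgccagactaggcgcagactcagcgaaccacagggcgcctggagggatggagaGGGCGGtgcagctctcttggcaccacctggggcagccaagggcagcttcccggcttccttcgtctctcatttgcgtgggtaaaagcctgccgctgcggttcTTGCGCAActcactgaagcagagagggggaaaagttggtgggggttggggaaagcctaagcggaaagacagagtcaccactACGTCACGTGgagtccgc
Alox5, chr6:116461149-116461428, minus strand: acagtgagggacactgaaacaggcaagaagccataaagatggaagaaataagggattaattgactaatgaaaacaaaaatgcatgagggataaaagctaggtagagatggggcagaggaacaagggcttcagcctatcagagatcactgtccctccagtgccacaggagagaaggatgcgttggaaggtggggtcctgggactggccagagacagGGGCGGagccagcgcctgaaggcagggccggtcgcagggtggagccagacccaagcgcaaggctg
Ltb4r1, chr14:55765712-55765991, plus strand: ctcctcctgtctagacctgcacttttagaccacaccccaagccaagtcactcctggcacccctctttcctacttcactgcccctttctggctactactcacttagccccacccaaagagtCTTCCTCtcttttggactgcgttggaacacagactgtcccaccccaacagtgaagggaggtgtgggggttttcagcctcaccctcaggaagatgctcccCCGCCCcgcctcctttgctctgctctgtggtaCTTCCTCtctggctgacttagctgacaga

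The Ptgs2 window held the C/EBP-type motif, first base 69 bases before the start, which 0.180% of 32851 promoter windows of the same length hold. Just after the annotated start it held ACGTCA and CACGTG, which share 2 letters and run together, and which occur in 7.26% and 6.79% of windows. Both other windows held fewer kinds of match. Ltb4r1 held the PU.1-type motif at 2 places, on the opposite strand, where 12.2% of windows hold it, and a GC box, as 34.7% do. Alox5 held a GC box alone. A match describes letters in the window and says nothing of binding in these aortas.

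Levels of different genes can be compared only per length, here as CPM per kb of all annotated exons. In Sept2C111A recipients Ptgis led at 245 ± 44.1, followed by Alox5ap at 21.2 ± 3.84 and Ptgs1 at 12.3 ± 2.21 CPM per kb (SD, n = 3). Ptgs2 at 11.6 ± 10.3 could not be placed apart from Ptgs1 or from Ptges at 5.57 ± 1.2. It lay below Alox5ap in each of the 3 libraries, but only narrowly in library 2 (23.45 against 24.4). Below came Alox5 at 3.16 ± 0.647, then Ptger4, Alox15 and Ltb4r1, from 1.09 to 1.44 and within each other's spread, and Ptgds at 0.345. Ptger4 depends on the length used: per kb of its longest transcript it stood at 2.54, above Alox15 at 1.13 and Ltb4r1 at 1.09, and at 2.72 in Apoe-/- recipients. In Apoe-/- recipients Ptgis led at 177 ± 98.3 and Alox5ap followed at 63.0 ± 27.1. Ptgs2 at 25.7 ± 21.6 and Ptgs1 at 14.4 ± 1.33 could not be ordered against each other. Ltb4r1, at 17.5 ± 26.2, had 47.7, 1.06 and 3.69 CPM per kb, so only library 1 set it high. Except for Ptgds, which was lower in every library, it could not be placed apart from the genes below Alox5ap. Ptges and Alox5 had like means, at 5.47 ± 2.38 and 5.36 ± 5.24, but library 1 set that of Alox5. Ptges had 8.19, 3.83 and 4.39 CPM per kb, against 11.4, 2.34 and 2.32 for Alox5. Ptger4, Alox15 and Ptgds were lowest, at 1.54, 1.21 and 0.108. Transcripts of FLAP thus exceeded those of 5-lipoxygenase in all 6 aortas.

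The rest of the pathway was described by 9 lists with 84 genes in all, of which 82 had a row and 66 were tested. With all 6 libraries DESeq2 called 0 of the 66 higher and 8 lower, against the background given above. The count called by edgeR was 0 in either direction. The DESeq2 counts depended on the libraries. Without Sept2C111A library 2 it called 4 higher and 5 lower (233 and 417 of all genes). Without Apoe-/- library 2 these were 4 and 12 (740 and 1027), and without Apoe-/- library 3 they were 1 and 7 (75 and 264). Without Sept2C111A library 1 or 3 or Apoe-/- library 1 it called 0 higher, and 7, 3 and 5 lower. At an unadjusted edgeR p under 0.05, 10 of 66 were higher and 13 of 66 lower, beside 6.17% and 8.83% of all tested genes. The groups were separate for 9 genes in the higher direction (11.2% of all tested genes were) and for 10 in the lower (11.9%). The median log2 fold change of the 66 was -0.01, beside 0.001 for all genes. Besides the 2 members, DESeq2 with all 6 libraries called Tbxas1, Cyp4f18, Lpcat2, Pla2g7, Fpr1 and Fpr2.

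Among the prostanoid synthases (11 of 12 tested, median 0.03), DESeq2 called 1 gene lower and 0 higher. This was Tbxas1, thromboxane synthase, an enzyme of platelets and macrophages. It had 11.5, 8.62 and 9.07 CPM in Sept2C111A recipients, against 18.6, 19.9 and 20.2 CPM in Apoe-/- recipients. The groups were separate and each was tight, with a log2 difference of -1.01 (SE 0.17, adjusted p = 9.46e-05 by DESeq2 and 0.316 by edgeR). DESeq2 called it in 6 of 6 fits with a library left out.

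In leukotriene synthesis and breakdown (11 of 13 tested, median -0.26), DESeq2 called 2 genes lower, Alox5ap and Cyp4f18, and 0 higher. Cyp4f18, the cytochrome that inactivates leukotriene B4 in mouse neutrophils, had 7.04, 4.70 and 4.90 CPM in Sept2C111A recipients, against 124, 18.7 and 45.8 CPM in Apoe-/- recipients. Its order across the Apoe-/- libraries, with library 1 highest and library 2 lowest, was that of Alox5ap and Ltb4r1, and also of the neutrophil, platelet, eosinophil, erythroid, B cell, mesothelial and Schwann cell sums. Its log2 difference was -3.50 (SE 0.71, adjusted p = 2.67e-05 by DESeq2 and 0.316 by edgeR), and -2.53 without Apoe-/- library 1, and DESeq2 called it in 6 of 6 such fits. The leukotriene A4 hydrolase gene Lta4h, which completes leukotriene B4, stood at -0.23 on the log2 scale (SE 0.19), and the leukotriene C4 synthase gene Ltc4s at 0.21 (SE 0.22); these 2 were named for their place beside the members, after their values were seen.

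Among phospholipases and acyltransferases (16 of 19 tested, median -0.06), DESeq2 called 2 genes lower and 0 higher. Both act on platelet-activating factor. Lpcat2, an acyltransferase that can make it, had 12.9, 11.5 and 9.74 CPM in Sept2C111A recipients, against 44.5, 22.7 and 30.7 CPM in Apoe-/- recipients, a log2 difference of -1.52 (SE 0.27, adjusted p = 0.000383 by DESeq2, called in 6 of 6 fits with a library left out). Pla2g7, which breaks it down, had 64.3, 33.0 and 50.3 CPM in Sept2C111A recipients, against 107, 95.6 and 197 CPM in Apoe-/- recipients. The log2 difference was -1.44 (SE 0.36, adjusted p = 0.0131 by DESeq2), and the call was lost without Sept2C111A library 2 (adjusted p = 0.0636) or 3 (0.156) and without Apoe-/- library 3 (0.0572). The edgeR adjusted p of both genes was 0.316.

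Of the receptors of formyl peptides and pro-resolving lipids (4 of 6 tested, median -1.73), DESeq2 called Fpr1 and Fpr2 lower and 0 higher. The median lies between these and the other tested genes, Cmklr1 at -0.01 (SE 0.16) and Lgr6 at 0.90 (SE 0.75). Lgr6 had 227 to 360 CPM in Sept2C111A recipients, against 24.8 to 267 CPM in Apoe-/- recipients. Fpr1, a formyl peptide receptor of phagocytes, had 1.10, 0.442 and 0.0556 CPM in Sept2C111A recipients, against 21.9, 0.999 and 2.32 CPM in Apoe-/- recipients. Fpr2, which also binds lipoxin A4, had 2.26, 0.663 and 1.28 CPM in Sept2C111A recipients, against 38.6, 2.05 and 5.44 CPM in Apoe-/- recipients. Both repeated the Ltb4r1 profile, with overlapping groups and 1 very high Apoe-/- library. Without that library, Apoe-/- library 1, the DESeq2 adjusted p was 0.505 for Fpr1 and 0.33 for Fpr2. Their calls were also lost without Sept2C111A library 2 (0.118 and 0.0952) or 3 (0.244 and 0.203).

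In the other lists DESeq2 with all 6 libraries called no gene beyond Ltb4r1. Among prostanoid receptors (7 of 9 tested, median 0.05), the prostaglandin E2 receptor genes of smallest p pointed in opposite directions: Ptger2 (EP2) stood at a log2 difference of -2.22 (SE 0.73), but at -1.07 without Apoe-/- library 1, and Ptger3 (EP3) at 1.65 (SE 0.68), with edgeR adjusted p of 0.316 and 0.333. For prostaglandin breakdown and transport (6 of 6 tested, median 0.28), Zadh2, a prostaglandin reductase, stood at 0.56 (SE 0.17) and Abcc4, an exporter of prostaglandins, at -0.65 (SE 0.22), both with an edgeR adjusted p of 0.316. Among leukotriene receptors (3 of 5 tested, median -0.66, with Oxgr1 not analysed here), Cysltr1 and Ltb4r2 stood at -0.66 (SE 0.37) and -0.59 (SE 0.59). Without Apoe-/- library 1 they stood at -0.26 and 0.14, so the sign of Ltb4r2 turned. Of the other lipoxygenases (3 of 6 tested, median -0.12), the platelet-type gene Alox12 stood at -1.61 (SE 0.51, edgeR adjusted p = 0.316), or -0.89 without Apoe-/- library 1, and Alox8 at 0.12 (SE 0.46). All 5 tested genes of the epoxygenase and epoxide hydrolase list (of 8 listed) had positive values, as did 50.1% of all genes. Their median log2 difference was 0.56, and with all 6 libraries neither edgeR nor DESeq2 called any of them. Ephx1 stood at 0.83 (SE 0.39). DESeq2 called it in 1 of 6 fits with a library left out, at 1.36 without Apoe-/- library 2 (adjusted p = 7.9e-05), and gave 0.53 without Apoe-/- library 1. Ephx1 was named for that call, after its values were seen. Cyp4b1 at 0.32 (SE 0.64), was -0.03 without Sept2C111A library 3 and -0.01 without Apoe-/- library 2. Ephx2, the soluble epoxide hydrolase, stood at 0.56 (SE 0.22) and Cyp2j9, of the CYP2J epoxygenase family, at 0.58 (SE 0.27), with edgeR adjusted p of 0.329 and 0.36.

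**Figure D4:**
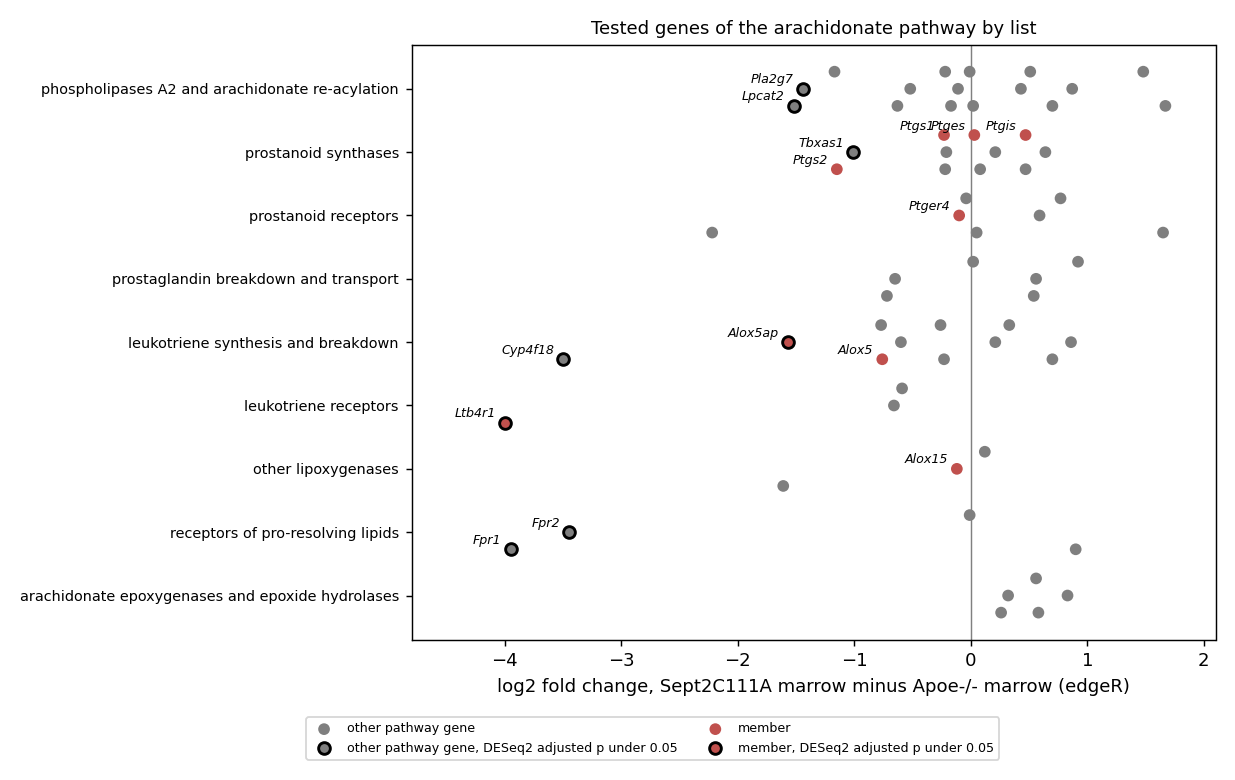
Log2 fold change (Sept2C111A marrow minus Apoe-/- marrow, edgeR) of the 66 tested pathway genes in 9 lists, with the 10-gene set in red, other genes in grey and DESeq2 calls outlined. The 8 outlined genes lie between -4.0 and -1.01, and the epoxygenase and epoxide hydrolase genes lie to the right of 0.

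The genes with the most similar profiles were found among 13869 other named genes, by the Euclidean distance of log2 CPM centred on each gene's mean over the 6 libraries. Alox5ap lay nearest to S1pr3 (distance 0.183) and Nek6 (0.240), where the median gene was at 2.21. Ltb4r1 lay nearest to Ddc (0.688) and Mmp25 (0.705), with a median of 5.01. Alox5 lay nearest to Uap1 (0.396) and Tnfaip6 (0.552), with a median of 2.09, and Ptgs2 to Baalc (0.830) and Clcf1 (0.985), with a median of 2.89. Ptgis lay nearest to Jph2 (0.192) and Zfp641 (0.199), with a median of 1.87. Genes that vary little sit close to many others, so the distances of Ptgs1 (Jade1 at 0.113, Tmem11 at 0.167), Ptges (Irf1 at 0.253, Tdrkh at 0.286), Ptger4 (Tnip3 at 0.347, Spn at 0.349) and Alox15 (Tsc22d2 at 0.0619, Rpa2 at 0.160) cannot be set beside these. Among the members themselves, Alox5ap and Ptgs2 were each other's nearest, at 1.70, farther than the nearest outside gene of either. The outside gene was picked from 13869 candidates and the member from only a few. The comparison therefore cannot tell whether the members vary together.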

How the data were processed

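Whole aortas gave 1 library per sample, 3 per group, made from poly(A)-captured RNA per the labels' protocols. The authors deposited expected counts for each gene, without normalisation. Per the submitters' processing notes, the tools named are Bowtie2, RSEM 1.3.1 and DESeq2 1.4.5, with build mm10. The sources used here give no annotation, filter or strand setting. A read that fits several transcripts is shared out among them by RSEM, so 34.6% to 35.9% of values were fractional. The header of Sept2C111A library 3 bore a different number, and GEO's record of the sample was followed. Dates that a spreadsheet had made of 12 septin names were turned back.

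Expected counts were rounded and tested with edgeR 4.0.16 under R 4.3.3: filterByExpr (minimum count 10), TMM scaling, the two-sided quasi-likelihood F test on 3 against 3 libraries, and Benjamini-Hochberg adjustment over 14466 genes, with 0.05 as threshold. CPM are on TMM-scaled library sizes, and each SE is the fold change on the log2 scale over the root of F. DESeq2 1.42.0, limma 3.58.1 (voom with quality weights), other scalings and filters, a fit with sample number as a block, and fits without each library were alternatives. The tests were tried on simulated counts with 200 changed genes. Coordinates and exon lengths are from GENCODE release M21 (mm10). Replicates differed beyond sampling noise, with chi-square per degree of freedom from 52.6 to 249. Each group has 3 mice according to the design text, and no batch is labelled.

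The members and lists were chosen with earlier results of these data known. The text names the 10 members, the pathway genes called by edgeR or DESeq2 in each list or else its 2 genes of smallest edgeR p, and the 2 genes nearest to each member. DESeq2 fits that leave out a library were added after seeing the data.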

Additional observations from a re-analysis of the deposited data

How the results depend on the processing

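The count of genes called at adjusted p under 0.05 was 0 by edgeR under every scaling and filter tried, by limma-voom and without each library, and 570 by DESeq2. With a library left out, DESeq2 called 241, 650 and 116 genes without Sept2C111A library 1, 2 and 3, and 330, 1767 and 339 without Apoe-/- library 1, 2 and 3. The 3340 genes with separate groups became 4240 to 5899 without 1 library, where fewer samples have to be separated. No DESeq2 or edgeR setting turned the sign of Ptgs1, Ptgs2, Ptgis, Alox5ap or Ltb4r1. Signs turned for 4 members. Ptger4 was 0.35 by limma-voom, and without 1 library it ran from -0.45 to 0.28 by edgeR and from -0.46 to 0.28 by DESeq2 (0.034 without Sept2C111A library 2 and 0.067 without library 3). Ptges ran from -0.17 to 0.45 by edgeR and from -0.17 to 0.44 by DESeq2 (-0.12 without Sept2C111A library 1, -0.111 without Apoe-/- library 3). Alox5 ran from -1.12 to 0.44 by either tool, and Alox15 from -0.28 to 0.041 by edgeR and from -0.30 to 0.037 by DESeq2. None of these 4 passed edgeR, DESeq2 or limma-voom in any setting tried, and the cause was not tested. Limma-voom gave -1.36 for Ltb4r1 and -0.18 for Alox5, against -4.0 and -0.76. With the longest transcript in place of all exons, 5 of 20 levels per kb moved by more than 1 SD. Same-numbered libraries deviated from their group means with correlations of 0.005, 0.15 and -0.166. With 3 libraries per group, these cannot tell whether the sample numbers pair the libraries. With the sample number as a replicate block edgeR called 0 genes, and the log2 fold change was -1.50 for Alox5ap and -2.56 for Ltb4r1.

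With 3 animals per group the spread between them, not depth, limits most members. Ptgds, with at most 20 reads in a library, is limited by depth, and without the filter it stood at 1.65 (SE 0.87, edgeR adjusted p = 0.438). An effect on the leukocytes themselves and a difference in their number cannot be told apart in whole aorta. P-values weigh the difference between groups against the spread within them in these 6 samples.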
